A study of Mus musculus with 6 samples.

Results

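The contractile apparatus of smooth muscle was followed through 10 genes in distal colon of mice with colitis. They encode smooth muscle actins (Acta2, Actg2), myosin chains (Myh11, Myl9), actin-binding proteins (Cnn1, Tagln, Lmod1, Smtn) and intermediate filament proteins (Des, Synm). The 10 were chosen by symbol for their known roles, out of 54532 genes in the deposited count table, and all 10 were found and passed the filter on low counts that left 16861 genes tested. Poly-A RNA sequencing covered 3 libraries labelled Itgbl1 -/- (KO 1 to KO 3) and 3 labelled WT (WT 1 to WT 3), and every animal of both groups drank water with 3% dextran sulfate sodium (DSS), which damages the gut lining, for 7 days before death. Neither strain, sex and age nor the construction of the knockout allele is given in the labels, and they do not say whether libraries are separate animals, so each p-value here reflects spread between libraries that may be technical. The comparison asks how muscle transcripts differ between the genotype labels under DSS, in a series whose title concerns the epithelium.

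Visceral smooth muscle shortens when calcium and calmodulin activate myosin light chain kinase, the regulatory light chain of myosin is phosphorylated, and myosin filaments pull on actin filaments anchored in dense bodies. Desmin filaments tie these dense bodies together. In the colon this muscle forms the muscularis mucosae and the circular and longitudinal layers of the outer wall, and serum response factor with its partner myocardin switches on most of its contractile genes. Acta2 is also made by vascular smooth muscle, by pericytes and by activated fibroblasts, whereas Actg2 is the actin typical of visceral muscle.

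The 10 genes took 0.454%, 0.655% and 0.186% of all counts in KO libraries 1, 2 and 3, against 0.402%, 0.504% and 0.378% in WT libraries 1, 2 and 3. Total counts were 13326970 in KO 3 and lay between 16800399 and 18321389 in the other 5 libraries. KO 3 also had 12.8% of its counts on mitochondrially encoded genes, against 3.53 to 4.88% elsewhere. Itgbl1 itself had 12, 4 and 10 reads in KO libraries 1 to 3 and 19, 6 and 5 reads in WT libraries 1 to 3 (log2 ratio -0.19, 95% interval -2.002 to 1.625, edgeR adjusted p = 0.901). These reads do not bear out the knockout label, and which exons were deleted is not stated. KO and WT below mean the libraries so labelled.

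No contractile gene differed between KO and WT beyond the spread of the libraries, and the libraries labelled KO differed widely among themselves. With edgeR's quasi-likelihood test 0 of 10 members had an adjusted p under 0.05, against 0% of all genes tested, and 0 of 10 had an unadjusted p under 0.05, against 24.1% of all genes. DESeq2 called 0 of 10, against 10.6% of the 19254 genes to which it gave an adjusted p, and limma-voom called 0 of 10, against 0% of all genes. KO 3 held the lowest level of all 6 libraries in 10 of 10 members, where 31.2% of all genes were lowest in KO 3. KO 2 held the highest level in 8 of 10, where 12.3% of all genes were highest in KO 2. In 0 of 10 members did the 3 KO libraries lie all above or all below the 3 WT libraries, against 32.3% of all genes tested, 15% above and 17.3% below. In whole tissue, fewer muscle cells and less RNA per muscle cell cannot be told apart.

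**Figure D1:**
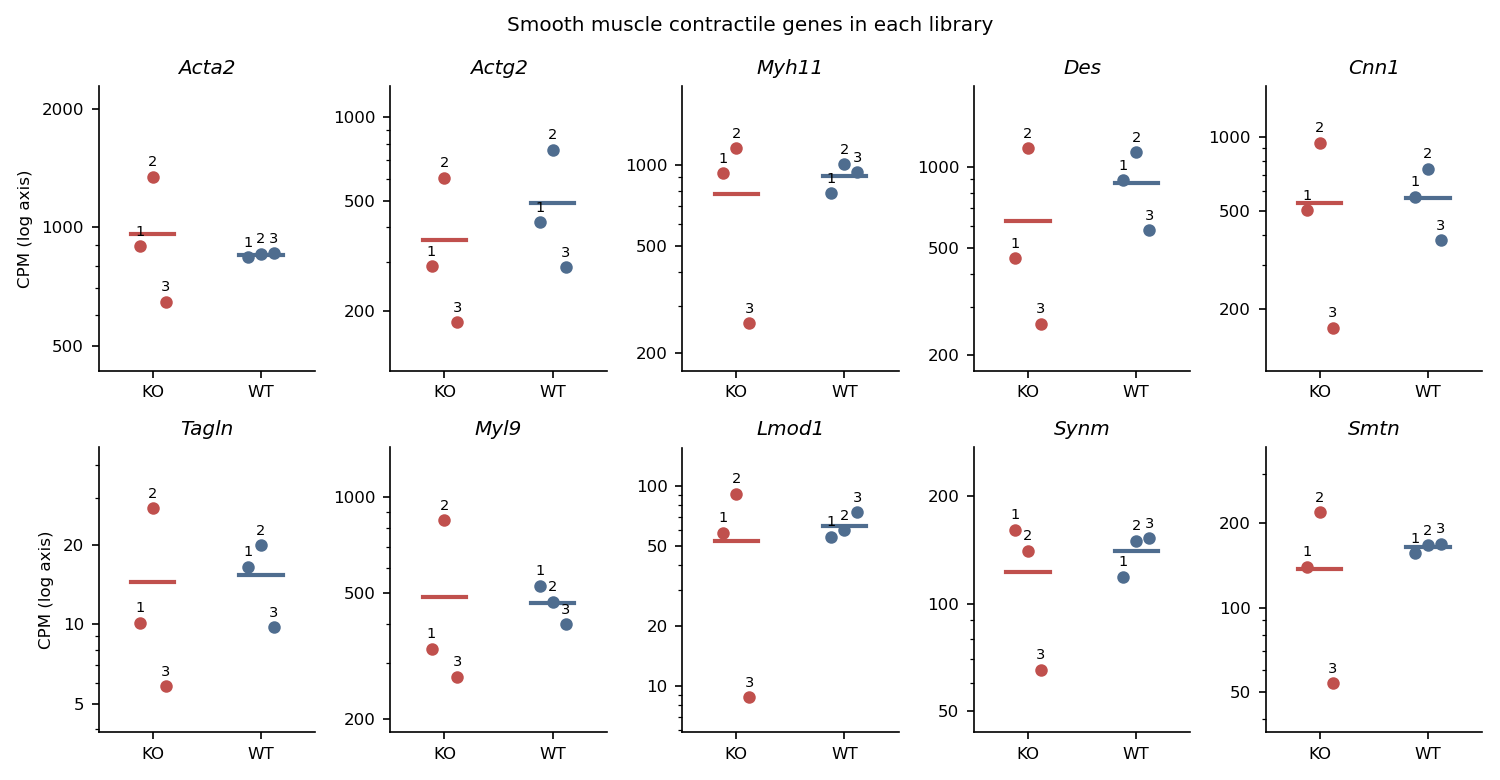
Level of each contractile gene in CPM, counts scaled to a common library size (log axis, a different range in each panel) in the 3 KO and 3 WT libraries, numbered by replicate, with bars at the group means. KO 3 is the lowest point in all 10 panels, and KO 2 is the highest in 8 of them.

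Levels are given as CPM scaled by TMM, a library factor that allows for differences in RNA composition. Levels of different genes are compared as CPM per kilobase of gene model (CPM per kb). By that measure Acta2 was the most abundant member in 5 of the libraries, at 541 ± 198 CPM per kb in KO and 479 ± 5.50 CPM per kb in WT (SD, n = 3 each), and Actg2 was first in WT 2. Myl9 followed at 416 ± 271 CPM per kb in KO and 399.7 ± 56.0 CPM per kb in WT (SD, n = 3 each). Actg2, Cnn1, Des and Myh11 had group means between 102.6 and 231 CPM per kb in KO and between 119.6 and 314 CPM per kb in WT. Smtn stood at 31.4 ± 18.9 CPM per kb in KO and 37.5 ± 1.58 CPM per kb in WT (SD, n = 3 each), and Synm, Lmod1 and Tagln were lower still in both groups. In KO the means of all neighbours in this order differed by less than the sum of their SDs, whereas in WT Acta2 was above Myl9, Cnn1 above Myh11, Myh11 above Smtn, Smtn above Synm and Lmod1 above Tagln by more than that.

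Tagln, which encodes the actin-bundling protein transgelin (SM22) and is known as an abundant smooth muscle transcript, was the least abundant member per kb in 5 of the libraries. It had 205, 480 and 75 reads in KO libraries 1 to 3 and 278, 314 and 165 reads in WT libraries 1 to 3. Its gene (ENSMUSG00000032085, chromosome 9, 45929619 to 45936058, minus strand, GRCm38) has 1988 exonic bases in GENCODE M21, and 67.9% of them also lie in exons of genes on the opposite strand. The antisense gene Gm48529 (chromosome 9, 45930112 to 45933738) covers 1241 of these bases and the protease gene Pcsk7 covers 108. Gm48529 itself was listed with 25, 64 and 53 reads in KO libraries 1 to 3 and 85, 98 and 44 reads in WT libraries 1 to 3. No source used here gives the strand setting or the handling of reads in overlapping genes, so the level of Tagln is uncertain and its reads cannot be told apart from those of its neighbours. The shared part was 16.3% in Smtn, 6.4% in Synm, 5.9% in Des and 0% in the other 6 members.

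Serum response factor binds the CArG box, which is CC, then 6 bases of A or T, then GG. Promoters of 7 of the 10 members (Acta2, Des, Cnn1, Myl9, Lmod1, Synm and Smtn) were found among RefSeq promoters of GRCm38.p6, each reaching from 250 bases before the start to 50 after it; Actg2, Myh11 and Tagln were not matched. Both strands were searched, and the box reads the same on either. An exact box was in 1 of the 7, Myl9, and in 1.63% of all 32851 promoters. With any base allowed at 1 of the 6 A/T positions, a search added after the exact one, a match was in 3 of the 7 (Acta2, Myl9 and Synm) and in 9.98% of all promoters. The promoters of Acta2 and Myl9 hold 2 matches each and are shown for this, as the 250 bases before the RefSeq start, 5′ to 3′, with the matches in capitals. The Acta2 stretch is chr19:34255374-34255623, minus strand, and the Myl9 stretch is chr2:156775214-156775463, plus strand.
Acta2: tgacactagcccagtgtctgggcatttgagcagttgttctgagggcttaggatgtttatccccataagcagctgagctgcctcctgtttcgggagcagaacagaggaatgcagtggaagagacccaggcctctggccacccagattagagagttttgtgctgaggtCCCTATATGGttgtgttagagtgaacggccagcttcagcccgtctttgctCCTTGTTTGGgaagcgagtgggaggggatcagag
Myl9: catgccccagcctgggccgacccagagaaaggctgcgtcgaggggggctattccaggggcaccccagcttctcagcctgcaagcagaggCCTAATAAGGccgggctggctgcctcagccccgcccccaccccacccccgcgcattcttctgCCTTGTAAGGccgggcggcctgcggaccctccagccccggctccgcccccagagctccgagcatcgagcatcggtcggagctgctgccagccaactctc
The Acta2 matches, CCCTATATGG and CCTTGTTTGG, begin 84 and 34 bases before the start. In Myl9 the exact box CCTAATAAGG begins 161 bases before the start and CCTTGTAAGG begins 99 before it. Starts here are those of RefSeq. The deposited models of Acta2 and Smtn, both on the minus strand, begin elsewhere, at 34255336 and 3540612. The Smtn stretch searched, chr11:3539243-3539542, does not reach that deposited start. A match is a description of the letters only, and factor binding was not measured here.

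Among the actins, Acta2 (ENSMUSG00000035783, chromosome 19, 34241090 to 34255336, minus strand), the smooth muscle alpha actin gene, was at 897, 1344 and 649 CPM in KO libraries 1, 2 and 3, against 842, 857 and 860.0 CPM in WT libraries 1, 2 and 3. The WT libraries lay within 1.02-fold of each other and the KO libraries spanned 2.07-fold, with KO 1 and KO 2 above and KO 3 below every WT library. The log2 ratio of KO over WT was 0.18 ± 0.41 (SE), with a 95% interval of -0.78 to 1.13 (edgeR adjusted p = 0.815). Actg2 (ENSMUSG00000059430, chromosome 6, 83512905 to 83536265, minus strand), the enteric gamma actin gene, was at 289.8, 605 and 182 CPM in KO libraries 1 to 3 and at 418, 763 and 287 CPM in WT libraries 1 to 3. It was the most variable member within WT, spanning 2.66-fold, and its highest level was in WT 2. The log2 ratio of -0.45 had a 95% interval of -1.79 to 0.89 (edgeR adjusted p = 0.656).

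The balance of the visceral to the alpha isoform can be read inside each library, where scaling cancels. Reads per kb of Actg2 were 0.370, 0.515 and 0.320 of those of Acta2 in KO libraries 1 to 3, and 0.568, 1.02 and 0.382 in WT libraries 1 to 3. KO 2 lay between WT 3 and WT 1, so the groups overlapped. Actin genes are closely related, and how far their sequences match was not computed here. No source used here says how reads that match several genes were counted.

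In the thick filament, Myh11 (ENSMUSG00000018830, chromosome 16, 14194535 to 14291372, minus strand), the heavy chain of smooth muscle myosin, was at 930.2, 1150.3 and 258 CPM in KO libraries 1 to 3, against 782, 1005.5 and 938 CPM in WT libraries 1 to 3. KO 1 lay within the WT range and KO 3 at less than any WT library. Its log2 ratio, -0.22, had a 95% interval of -1.56 to 1.12 (edgeR adjusted p = 0.836). Myl9 (ENSMUSG00000067818, chromosome 2, 156775420 to 156781658, plus strand), the regulatory light chain whose phosphorylation turns the motor on, was at 333, 846 and 272 CPM in KO libraries 1 to 3 and at 527, 469 and 397 CPM in WT libraries 1 to 3. KO 1 and KO 3 were both below every WT library and KO 2 was above them all. A log2 ratio of 0.06 had a 95% interval of -1.11 to 1.23 (edgeR adjusted p = 0.954).

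Of the actin-binding members, Lmod1, Cnn1 and Tagln had the 3 widest ranges within KO of all 10 genes. Cnn1 (ENSMUSG00000001349, chromosome 9, 22099216 to 22109630, plus strand), calponin, which restrains the myosin motor, was at 503, 948 and 167 CPM in KO libraries 1 to 3 and at 572, 742 and 380.3 CPM in WT libraries 1 to 3. That is a 5.67-fold range in KO beside 1.95-fold in WT, around nearly equal means of 539 ± 392 CPM in KO and 565 ± 181 CPM in WT (SD, n = 3 each). Lmod1 (ENSMUSG00000048096, chromosome 1, 135324807 to 135368065, plus strand), leiomodin, which nucleates actin filaments, was at 58.0, 91.1 and 8.78 CPM in KO libraries 1 to 3 and at 55.4, 59.8 and 73.4 CPM in WT libraries 1 to 3. KO 1 was inside the WT range, KO 2 above it and KO 3 far below, a 10.4-fold range in KO beside 1.32-fold in WT. Log2 ratios were -0.07 for Cnn1, with a 95% interval of -1.55 to 1.41, and -0.26 for Lmod1, with -1.92 to 1.41 (edgeR adjusted p = 0.959 and 0.849).

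Smtn (ENSMUSG00000020439, chromosome 11, 3517523 to 3540612, minus strand), smoothelin, an actin-associated protein of contractile cells, was at 139.8, 219 and 53.8 CPM in KO libraries 1 to 3 against 156, 167 and 169 CPM in WT libraries 1 to 3. Tagln was at 10.1, 27.5 and 5.83 CPM in KO libraries 1 to 3 and at 16.5, 19.9 and 9.73 CPM in WT libraries 1 to 3. In both genes KO 2 was the highest and KO 3 the lowest library. The log2 ratios were -0.25 for Smtn, with a 95% interval of -1.38 to 0.87, and -0.09 for Tagln, with -1.47 to 1.296 (edgeR adjusted p = 0.773 and 0.943).

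Of the intermediate filament genes, Des (ENSMUSG00000026208, chromosome 1, 75360329 to 75368579, plus strand), desmin, was at 458, 1172 and 262 CPM in KO libraries 1 to 3, against 889, 1129 and 580.2 CPM in WT libraries 1 to 3. KO 1 and KO 3 were below every WT library and KO 2 was above them. Des had the lowest log2 ratio of the 10, at -0.46 ± 0.61 (SE) with a 95% interval of -1.89 to 0.98 (edgeR adjusted p = 0.67). Synm (ENSMUSG00000030554, chromosome 7, 67730160 to 67759742, minus strand), synemin, which joins desmin in its filaments, was at 161, 141 and 65.5 CPM in KO libraries 1 to 3 and at 119, 150.5 and 153 CPM in WT libraries 1 to 3. Synm was the 1 member with its highest level in KO 1, and its interval was the narrowest of the 10, at -1.08 to 0.68 around a log2 ratio of -0.20 (edgeR adjusted p = 0.769).

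With 3 libraries a group, changes within a gene's own 95% interval were not excluded. The intervals ran from the narrowest, 0.474 to 1.60-fold for Synm, to the widest, 0.264 to 2.66-fold for Lmod1. The median log2 ratio of the members was -0.21, beside 0.06 over all genes tested, with 2 members positive and 8 negative, where 53.1% of all genes were positive. These directions depended on single libraries: without KO 2 the median was -0.81 with 0 of 10 positive, and without KO 3 it was 0.21 with 8 of 10 positive. Without KO 2, 6 of 10 members (Actg2, Des, Tagln, Myl9, Lmod1 and Smtn) had the other KO libraries below every WT library, against 27% of all genes lying below in that way and 50.7% not overlapping in either direction. Without KO 2, edgeR still called 0 of 10 members, against 10.4% of all genes.

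**Figure D2:**
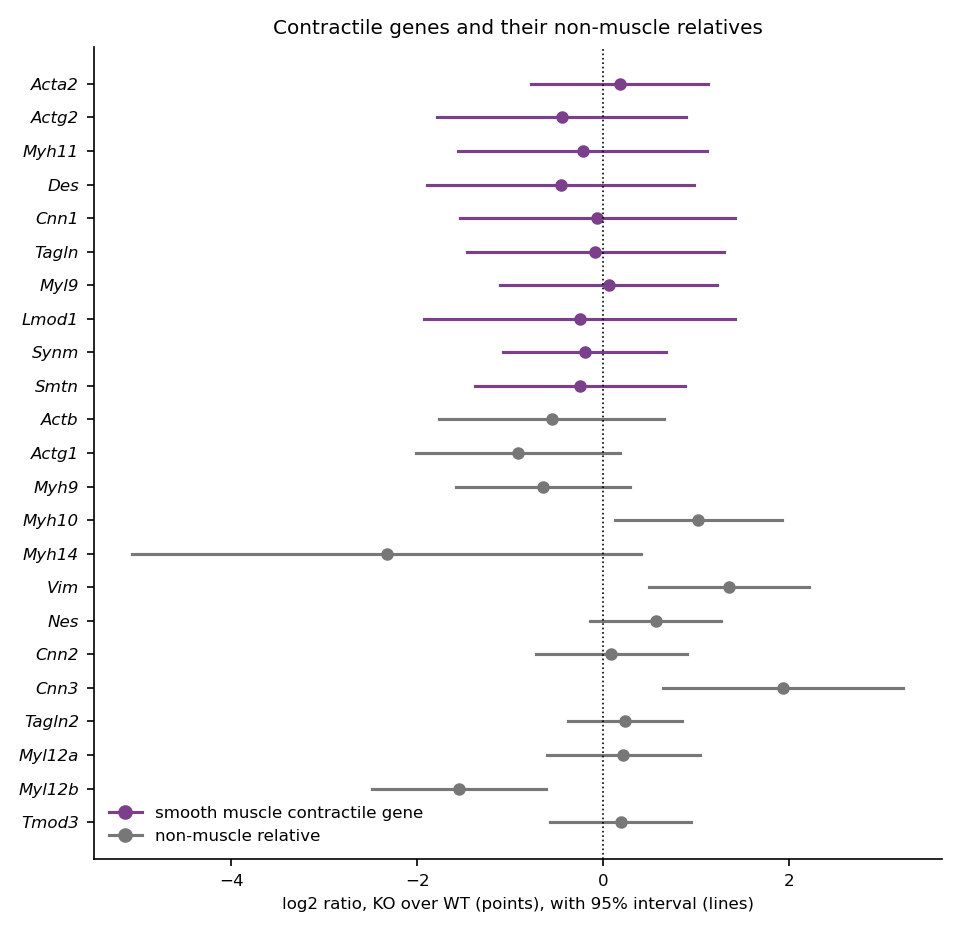
Log2 ratio of KO over WT (points) with 95% interval (lines) from edgeR's quasi-likelihood fit, for the 10 contractile genes and 13 genes of related non-muscle proteins. All 10 contractile intervals cross 0, and those of Vim, Cnn3, Myh10 and Myl12b among the relatives do not, although none passed after adjustment over all genes.

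The spread within KO was wider than within WT in 10 of 10 members, against 72.2% of all genes. The median SD of log2 CPM among the members was 1.06 in KO and 0.21 in WT, beside 0.55 in KO and 0.34 in WT over all genes tested. Lmod1 had the widest spread in KO, with an SD of 1.78 beside 0.21 in WT. Acta2 had the narrowest in both groups, 0.53 in KO and 0.02 in WT.

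**Figure D3:**
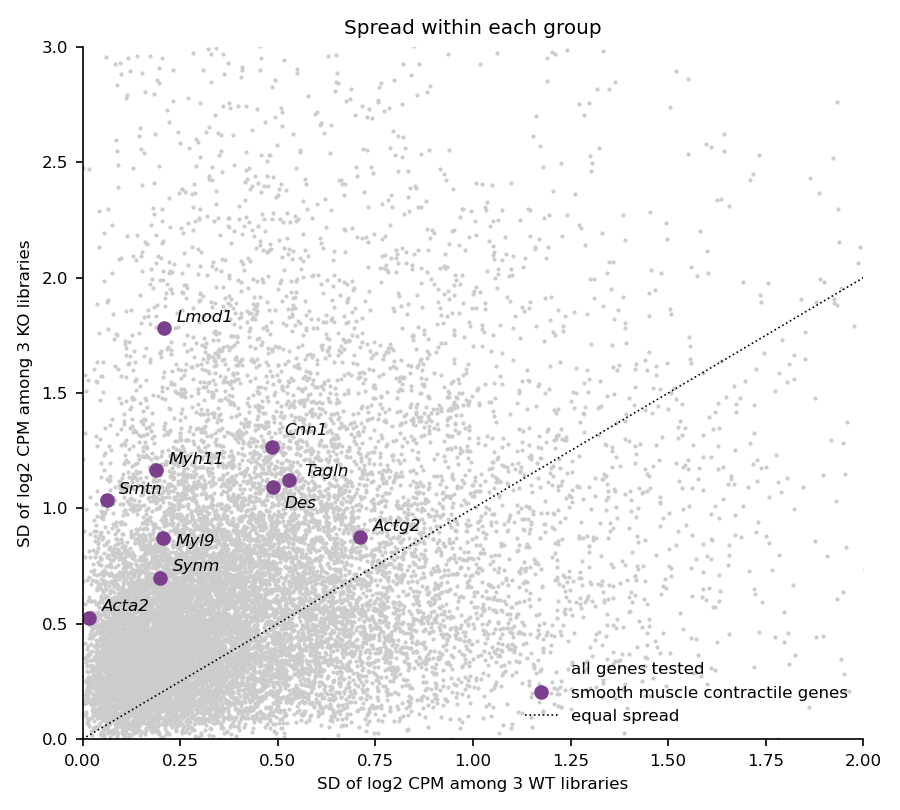
SD of log2 CPM among the 3 KO libraries against that among the 3 WT libraries, for every gene tested (grey) and the contractile genes (purple); 366 genes lie outside the axes. All 10 contractile genes lie above the dotted line of equal spread.

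The members were not equally low in KO 3. Set against the WT mean on the log2 CPM scale, Lmod1 stood at -2.81 in KO 3, Myh11 at -1.81, Cnn1 at -1.70, Des at -1.67 and Smtn at -1.61. Tagln at -1.32, Actg2 at -1.31, Synm at -1.09 and Myl9 at -0.76 followed, and Acta2 was nearest to WT at -0.40. In KO 2 the members stood between 0.01 (Synm) and 0.89 (Tagln) on this scale. In KO 1 they stood between -0.87 (Des) and 0.20 (Synm), so KO 1 was mixed. Within WT, WT 2 was the highest library for Actg2, Myh11, Des, Cnn1 and Tagln, and WT 3 the lowest for Actg2, Des, Cnn1, Tagln and Myl9.

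**Figure D4:**
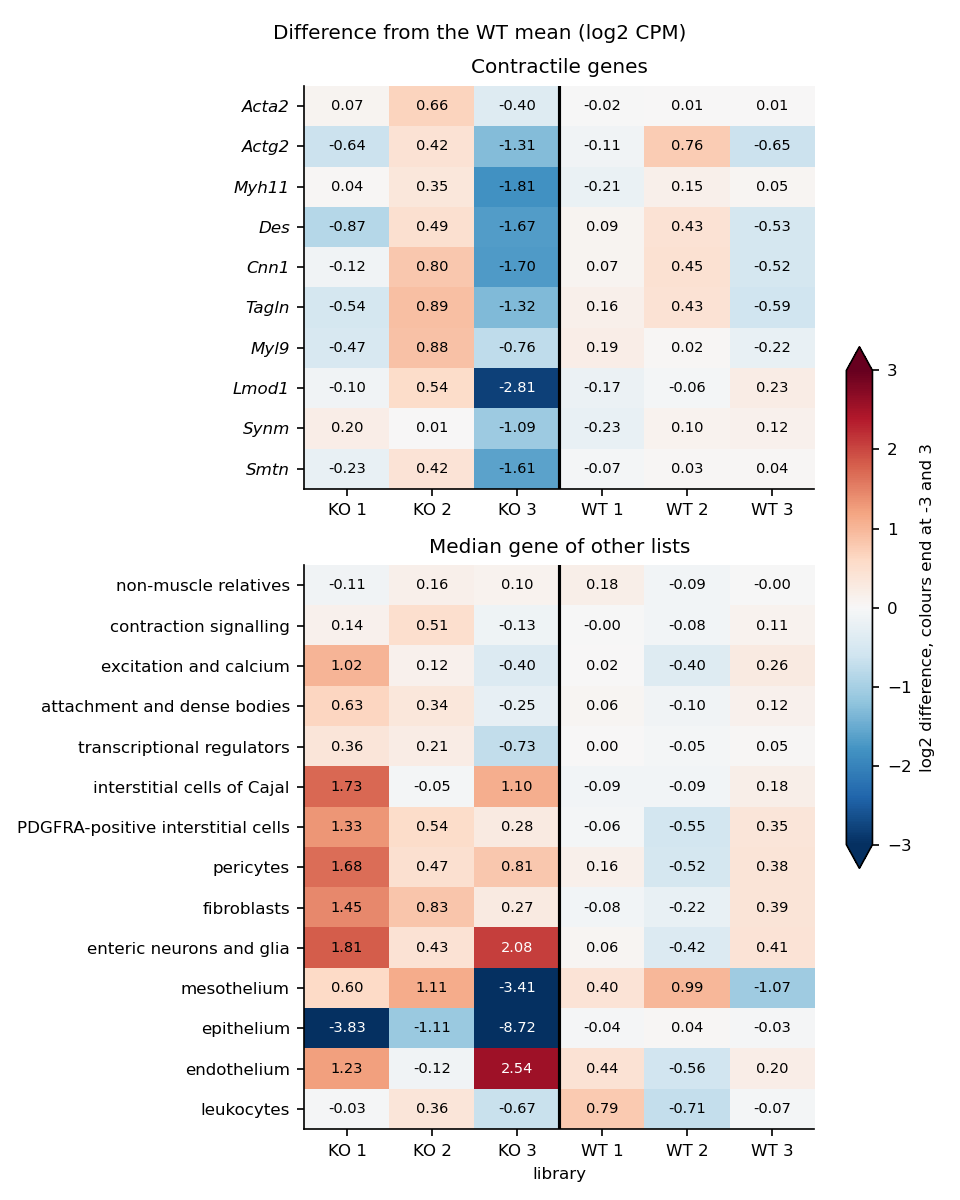
Log2 CPM in each library minus the WT mean, for each contractile gene (upper panel) and as the median gene of other lists (lower panel); numbers are the differences and colours end at -3 and 3. The members read -0.40 to -2.81 in KO 3, while the epithelium list reads -8.72 and the enteric neuron and glia list 2.08 in that library.

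Vim, Cnn3, Myh10 and Myl12b, non-muscle relatives of the members, had an unadjusted p under 0.05 by edgeR, as did 24.1% of all genes. Vim, the vimentin filament gene of connective tissue, was at 715.5, 661.5 and 995 CPM in KO libraries 1 to 3, against 352.5, 242 and 335 CPM in WT libraries 1 to 3. All KO libraries were above all WT libraries, with a log2 ratio of 1.35 and a 95% interval of 0.49 to 2.21 (edgeR adjusted p = 0.111). Cnn3, the acidic calponin found outside muscle, was at 220.4, 213 and 621 CPM in KO libraries 1 to 3 and at 133, 57.9 and 85.2 CPM in WT libraries 1 to 3, also without overlap (log2 ratio 1.93, edgeR adjusted p = 0.117). Myh10, a non-muscle myosin heavy chain, had a log2 ratio of 1.02 (edgeR adjusted p = 0.17). Myl12b, a non-muscle regulatory light chain, was at -1.55 with no overlap (edgeR adjusted p = 0.105). Myh14, Myh9 and Actg1, further non-muscle myosin and actin genes, also lay below WT in every KO library, at log2 ratios of -2.33, -0.65 and -0.91 (edgeR adjusted p = 0.269, 0.358 and 0.28). In all, 4 relatives lay wholly below WT, against 17.3% of all genes, and 3 (Vim, Cnn3 and Tagln2) wholly above it, against 15%. Of 13 relatives tested, 0 passed over all genes, 3 higher and 1 lower had an unadjusted p under 0.05, against 11.8% and 12.3% of all genes, and the median log2 ratio was 0.19.

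Within a library the muscle form can be set against its relative per kb. The ratio of Des to Vim was 0.809, 2.24 and 0.332 in KO libraries 1 to 3 and 3.19, 5.90 and 2.19 in WT libraries 1 to 3, and only KO 2 reached the WT range. The ratio of Myh11 to Myh10 was 22.0, 37.2 and 16.6 in KO libraries 1 to 3 and 47.7, 82.5 and 62.2 in WT libraries 1 to 3, with no overlap. By contrast Myh11 to Myh9, another non-muscle myosin, was 2.56, 3.46 and 1.45 in KO libraries 1 to 3 and 1.86, 2.29 and 1.85 in WT libraries 1 to 3, and there KO lay on both sides of WT. The ratio of Cnn1 to Cnn3 was 2.53, 4.95 and 0.299 in KO and 4.79, 14.2 and 4.95 in WT in the same order. Acta2 to Actb, the cytoplasmic beta actin, was 0.562, 0.447 and 0.346 in KO and 0.203, 0.375 and 0.279 in WT. These ratios were not tested, and they moved in both directions across the pairs.

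**Figure D5:**
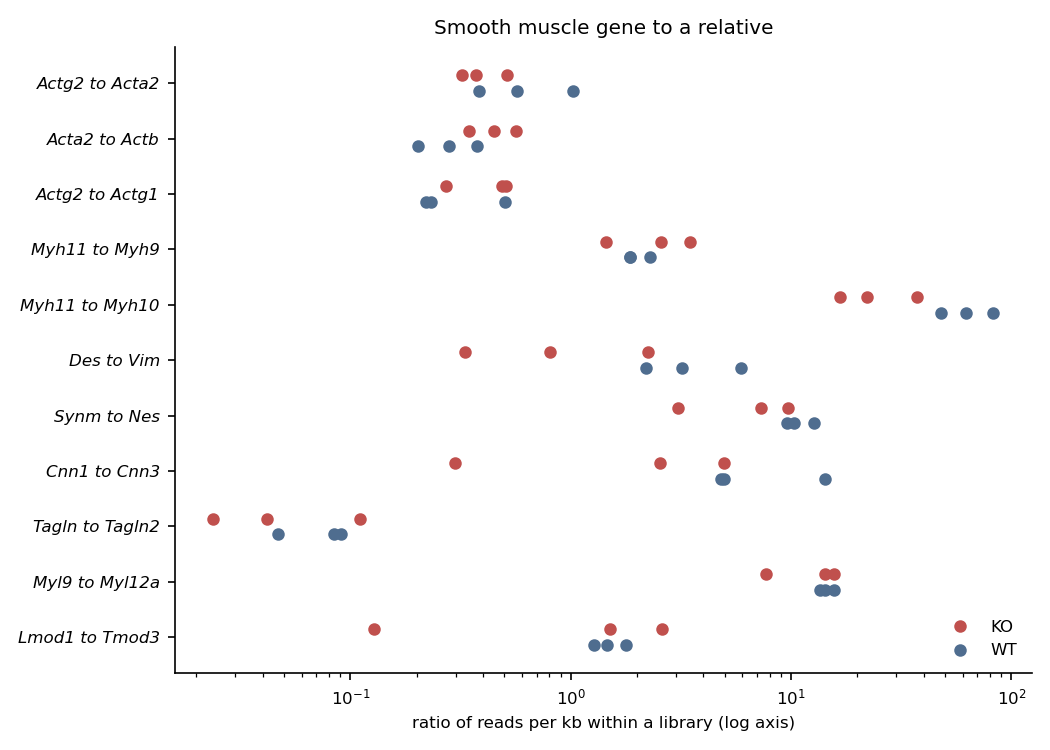
Reads per kb of a smooth muscle gene divided by those of a related gene in the same library (log axis), KO above WT in each pair. Myh11 to Myh10 is the pair without overlap, at 16.6 to 37.2 in KO and 47.7 to 82.5 in WT.

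Genes of the kinase, phosphatase and nitric oxide pathways that set contraction were also without a call. Of 16 tested, 0 passed, 2 were higher and 0 lower in KO at an unadjusted p under 0.05, against 11.8% and 12.3% of all genes, a count near the background, and the median log2 ratio was 0.12. Cald1, caldesmon, an actin-binding brake on contraction with a form outside muscle too, was at 844, 911 and 643 CPM in KO libraries 1 to 3 and at 372, 211 and 342 CPM in WT libraries 1 to 3. It had the smallest p of the list, with a log2 ratio of 1.37 and no overlap of the groups (edgeR adjusted p = 0.115). Gucy1b1, a subunit of the nitric oxide receptor guanylate cyclase, had a log2 ratio of 0.90 (edgeR adjusted p = 0.187). Pde5a, the phosphodiesterase that ends its signal, was at 0.67 and the cyclic GMP kinase gene Prkg1 at 0.48 (edgeR adjusted p = 0.342 and 0.482).

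Among 14 genes of excitation and calcium handling, 0 passed, 1 was higher and 0 lower at an unadjusted p under 0.05, again against 11.8% and 12.3% of all genes, and the median log2 ratio was 0.42. The calcium channel subunit genes Cacnb2 and Cacna1c had log2 ratios of 1.09 and 0.94 (edgeR adjusted p = 0.191 and 0.303). Kcnmb1, the smooth muscle subunit of the large-conductance potassium channel, was at 0.77 and phospholamban, Pln, a restraint on the calcium pump, at -1.30 (edgeR adjusted p = 0.407 and 0.253). Cacna1c was at 107.5, 31.0 and 37.5 CPM in KO libraries 1 to 3 and at 30.6, 21.7 and 39.5 CPM in WT libraries 1 to 3, so KO 1 alone stood outside the WT range.

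Attachment and dense body genes anchor the filaments to the membrane. Of 24 tested, 0 passed, and 4 were higher and 0 lower at an unadjusted p under 0.05, beside the all-gene shares of 11.8% and 12.3%. The median log2 ratio was 0.31, with 6 whose KO libraries lay above every WT library, against 15% of all genes. Itga5, the fibronectin receptor alpha chain, was at 364, 211 and 266 CPM in KO libraries 1 to 3 and at 151, 84.6 and 94.2 CPM in WT libraries 1 to 3, a log2 ratio of 1.35 (edgeR adjusted p = 0.11). The filament-associated genes Pdlim7 at 1.34 and Nexn at 0.96, and the dystrophin gene Dmd at 0.67, had adjusted p of 0.129, 0.132 and 0.188 by edgeR. Many of these genes are also used by connective tissue cells.

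Of the transcriptional regulators 11 were listed and 10 tested, 0 passed, 2 were higher and 2 lower at an unadjusted p under 0.05 (11.8% and 12.3% of all genes), and the median log2 ratio was 0.04. Gata6, a factor of muscle and of gut epithelium, was at 9.49, 15.8 and 12.9 CPM in KO libraries 1 to 3 and at 32.8, 53.3 and 47.2 CPM in WT libraries 1 to 3, without overlap (log2 ratio -1.80, edgeR adjusted p = 0.094). Klf4, a repressor of contractile genes that is also strong in colonic epithelium, had a log2 ratio of -2.44 (edgeR adjusted p = 0.104). Elk1, which competes with myocardin for serum response factor, was at 0.94, and Foxf1, a factor of gut mesenchyme, at 1.11 (edgeR adjusted p = 0.121 and 0.154). Srf and Myocd, named after their values were seen, had log2 ratios of -0.02 and -0.29. Myocd was at 5.93, 4.86 and 0.699 CPM in KO libraries 1 to 3, against 3.92, 3.16 and 7.02 CPM in WT libraries 1 to 3, so it too was lowest in KO 3. DESeq2 called 7 of 79 genes of these lists and of the relatives, or 8.86%, beside 10.6% of all genes with an adjusted p: Cald1, Cnn3, Itga5 and Vim as higher and Gata6, Klf4 and Myl12b as lower in KO.

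Among the KO libraries, the summed markers of epithelium, leukocytes and mesothelium stood in the same order as the contractile genes, highest in KO 2 and lowest in KO 3, and those of neurons and glia and of endothelium in the opposite order. The leukocyte sum was led by Lyz2, at 545, 1127 and 203 CPM in KO libraries 1 to 3, and its genes differed in order. Cd68 and Cd3e shared the order of Lyz2, whereas Ptprc and Cd79a were highest in KO 1. Itgam was highest in KO 3, at 50.6, 43.9 and 76.9 CPM in KO libraries 1 to 3. All of these but Lyz2 were named after their values were seen. The 7 epithelium genes summed to 919, 6406 and 44.6 CPM in KO libraries 1 to 3 and to between 12150.0 and 15180.0 CPM in WT, and the most abundant of them over all libraries, Krt8, was at 12.1 CPM in KO 3. The 10 enteric neuron and glia genes, from cells that lie between and within the muscle layers, summed to 679, 323 and 1057 CPM in KO libraries 1 to 3 and to between 129.7 and 243 CPM in WT. The 5 endothelium genes summed to 435, 224 and 987 CPM in KO libraries 1 to 3 and to between 135 and 266 CPM in WT. KO 3, the library with the least contractile transcript, thus had the least epithelial and the most neural and endothelial transcript. The part of these shifts in tissue makeup in the contractile values was not tested.

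Pericyte genes, from cells that share Acta2, summed to more in every KO library than in any WT library, and so did fibroblast genes, although in KO 3 most of their sum was Dcn. The 7 pericyte genes summed to 2448, 1154 and 981 CPM in KO libraries 1 to 3 and to between 306 and 686 CPM in WT, with all 6 tested members positive, 0 past the threshold by edgeR, and 4 higher at an unadjusted p under 0.05, against 11.8% of all genes. Their most abundant gene, Rgs5, was at 748, 361 and 511 CPM in KO libraries 1 to 3 and at 262, 164 and 322 CPM in WT libraries 1 to 3. Rgs5, Kcnj8 and Abcc9 made up most of each pericyte sum. In KO 2, Notch3 at 7.95 CPM and Cspg4 at 15.7 CPM were below every WT library, the lowest being 13.3 and 15.9 CPM. All of these but Rgs5 were named after their values were seen. The 8 fibroblast genes, led by Dcn and all positive, summed to 6649, 3767 and 4982 CPM in KO libraries 1 to 3 and to between 1409 and 2467 CPM in WT. Dcn made up 3515 CPM of the sum in KO 3, where the median fibroblast gene stood at 0.27 from the WT mean on the log2 CPM scale, beside 0.39 in WT 3. The 3 genes of interstitial cells of Cajal, the gut pacemaker cells, summed to 213, 84.0 and 143 CPM in KO libraries 1 to 3 and to 76.8 to 230.5 CPM in WT, and their median log2 ratio was 1.12. The most abundant, Ano1, was at -1.70, while Kit and Etv1, named after their values were seen, were at 1.22 and 1.12 (edgeR adjusted p = 0.186, 0.162 and 0.174). The 3 genes of PDGFRA-positive interstitial cells, relays of inhibitory nerves, summed to 448, 259 and 223 CPM in KO and to 112.6 to 224 CPM in WT. Most of that sum was Pdgfra, which is also counted among the fibroblast genes. The 6 leukocyte genes, led by Lyz2, summed to 818, 1369 and 412 CPM in KO libraries 1 to 3 and to 627 to 1749 CPM in WT. The 4 mesothelium genes summed to 6.45 to 650.4 CPM in KO and 1608 to 4466 CPM in WT, nearly all of it Krt19, which epithelium shares.

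Striated muscle was close to absent. The 10 skeletal muscle genes summed to 7.66, 101 and 19.4 CPM in KO libraries 1 to 3 and to 9.49 to 21.5 CPM in WT, and the 5 cardiac genes to 7.61 to 27.9 CPM in KO and 9.55 to 30.2 CPM in WT. Lmod2, a striated relative of Lmod1, had 0 reads in all 6 libraries, as did Smtnl1, a relative of Smtn. Acta1, the skeletal alpha actin gene, was at 1.83, 89.1 and 3.26 CPM in KO libraries 1 to 3 and at 2.79, 10.5 and 1.65 CPM in WT libraries 1 to 3, with a log2 ratio of 2.66 and a 95% interval of -0.92 to 6.23 (edgeR adjusted p = 0.322). KO 2 alone stood out, and in that library the skeletal myosin genes Myh1, Myh2 and Myh4, named after their values were seen, were at 0.229, 0 and 0 CPM. KO 2 was also the library with the highest smooth muscle actin gene Acta2.

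The genes closest in pattern to the members were sought among 14320 other protein-coding genes with a mean of at least 1 CPM. Likeness was the root mean square difference over the 6 libraries between a gene's log2 CPM, centred on its own mean, and the median centred profile of the 10 members. That profile was at 0.01, 0.76 and -1.25 in KO libraries 1 to 3 and at 0.20, 0.36 and -0.10 in WT libraries 1 to 3. Of the 5 closest genes, Pdlim3, a protein of the muscle Z line and dense bodies, was at 87.4, 152.5 and 48.2 CPM in KO libraries 1 to 3 and at 116, 118 and 97.5 CPM in WT libraries 1 to 3, with a difference of 0.138. The other 4 were Dguok, a mitochondrial deoxyguanosine kinase, at 0.113, the zinc finger gene Zfp677 at 0.113, the shieldin subunit gene Shld1 at 0.141 and the cap-binding subunit gene Ncbp2 at 0.151. The members themselves lay at 0.174 (Smtn) to 0.579 (Lmod1) from their median profile. The 5 genes were picked as the closest of 14320 and the members were not, so these distances cannot be set against each other.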

How the data were processed

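Whole-number counts of reads per gene, with gene models and lengths, are what the authors deposited. Per the labels' protocols, poly-A RNA of snap-frozen distal colon was sequenced and reads were cleaned of adaptors, poly-N and low quality. The submitters' processing notes name, without roles, HISAT2 2.0.5, StringTie 1.3.3b, featureCounts 1.5.0-p3, DESeq2 and the builds GRCm38 and mm10. Annotation, strand setting and multi-mapping rule are not stated there. The labels give 1 date for all 6 libraries and name no covariate other than genotype that differs between KO and WT. A date does not show whether preparation or sequencing was shared.

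The counts went into edgeR 4.0.16 (R 4.3.3): filterByExpr (at least 10 counts, total at least 15), TMM, robust quasi-likelihood F test with no covariate, and Benjamini-Hochberg adjustment over 16861 genes at 0.05. Log2 CPM had a prior count of 2. The fit was tested on simulated counts. The members and lists were chosen with earlier results of these data known. From each other smooth muscle list the 4 genes with the smallest p are named. The most abundant gene is named from each cell list except those of endothelium, of neurons and glia and of cardiac muscle. Pcsk7 and Gm48529 were named after their values were seen. Irag1, Mrtfa and Mrtfb were matched under older symbols. In GENCODE M21, 9 of 10 members (not Acta2) had the deposited start and end. No libraries of 1 group agreed within sampling noise (chi-square per degree of freedom 50.7 to 253). Alternatives were other scalings, filters and gene sets, DESeq2 1.42.0, limma 3.58.1, libraries left out and a replicate block.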

Additional observations from a re-analysis of the deposited data

How the results depend on the processing

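No member passed the adjusted threshold under any of the 18 alternatives. The count of all genes called was 0, and became 192 with no filter on low counts, 2034 with DESeq2, 1395 with limma-voom with quality weights and 3 with the replicate block. Leaving out 1 library gave 0 to 1813 genes called, 1813 being without KO 2. In the other lists, non-muscle relatives included, 0 genes were called, and 1 was with no filter (Gata6), 7 with DESeq2 (4 in muscle lists and 3 relatives) and 6 with limma-voom with quality weights (4 in muscle lists and 2 relatives). With 1 library left out 0 to 5 were called, 5 being without KO 2. Members whose groups did not overlap numbered 0 to 6 with 1 library left out.

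The log2 ratios of members lie near 0 and many changed sign. KO 3 was the lowest library for every member, and WT 2 the highest WT library for Actg2, Myh11, Des, Cnn1 and Tagln. Leaving out such a pair raises the ratios by construction, so it is no neutral check. With KO 3 and WT 2 left out together all 10 were positive. Actg2 was then at 0.33, Cnn1 at 0.59, Des at 0.14 and Lmod1 at 0.19. Myh11 was at 0.25, Smtn at 0.13, Synm at 0.12 and Tagln at 0.51. With upper-quartile scaling, which moved the median of all genes from 0.06 to 0.21, Cnn1 was at 0.064 and Tagln at 0.045. With limma-voom Myl9 was at -0.13, and with quality weights Cnn1 was at 0.063, Myl9 at -0.094 and Tagln at 0.020. With the replicate block Myl9 was at -0.13. With 1 library left out the ranges were -0.19 to 0.38 for Acta2, -1.10 to 0.0083 for Actg2, -0.67 to 0.18 for Myh11, -1.32 to -0.09 for Des, -0.81 to 0.35 for Cnn1, -0.99 to 0.29 for Tagln, -0.67 to 0.34 for Myl9, -0.97 to 0.23 for Lmod1, -0.43 to 0.077 for Synm and -0.82 to 0.12 for Smtn. Beyond that choice of pair, the cause of these changes was not tested. Replicate numbers gave correlations of deviations between KO and WT of -0.201, 0.0866 and -0.0753. So few libraries cannot show whether those of the same number shared a preparation or a batch. With 3 libraries a group, the intervals limit what can be seen.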
